A study of Drosophila melanogaster with 8 samples.

Results

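The genes described here carry the light response of the fly photoreceptor from the step after rhodopsin onward. They are the phospholipase gene norpA, the channel genes trp and trpl, the kinase and scaffold genes inaC and inaD, the lipid cycle genes rdgA, rdgB and laza, and the arrestin genes Arr1 and Arr2. They were taken by name from the array annotation, with a probe set kept only where its annotation held 1 gene symbol. Of the 10 genes listed, 9 had such a probe set, out of 11982 genes in the whole series, and they were read by 13 probe sets, namely 4 for rdgA, 2 for rdgB and 1 for each other gene. No probe set had norpA as its only symbol, and norpA was not analysed here. Head RNA of adult Drosophila melanogaster, both sexes, was measured on 8 Affymetrix arrays, in 4 groups of 2 that ask how head transcripts differ when Eyes absent (EYA), a transcriptional coactivator and protein phosphatase, is overexpressed. Control flies were W1118, with neither driver nor transgene, so driver, transgene and strain background differ from control together and cannot be told apart. Flies of the remaining 3 groups bore HspGal, a driver switched on by heat (Hsp-GAL4), together with UAS-EYA-wildtype, with UAS-EYA-D493N, whose phosphatase activity is reduced, or with UAS-EYA-E728Q, which has little or none. All 4 groups, control included, were given a heat shock of 1 h at 37 C and sampled after 3 h of recovery at 25 C. Each RNA came from 200 pooled heads. The labels do not say that the arrays of a group came from separate cultures, and the p-values therefore reflect array-to-array spread that may be technical.

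Light-activated rhodopsin in the fly eye acts through a G protein on a phospholipase C, the product of norpA, which splits the membrane lipid PIP2. This step leads to the opening of the cation channels TRP and TRPL in the rhabdomere, the stacked light-sensing membrane. The split lipid is rebuilt by a cycle that runs through diacylglycerol and phosphatidic acid, in which RDGA makes phosphatidic acid, LAZA turns it back to diacylglycerol, and RDGB carries phosphatidylinositol to the rhabdomere. The response ends when an arrestin binds the activated rhodopsin, and loss of several of these genes causes the retina to degenerate.

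The deposited signals have a median of 100 on every array, and the 2 arrays of a group correlated with r of 0.981 (D493N) to 0.991 (wild-type EYA) across the 11261 tested probe sets, which are not independent replicates. D493N replicate 1 stood apart, with a 5' signal of the 18S rRNA control of 5619, against 459 to 2196 on the other arrays. Its summed signal of 4 muscle markers was 17439, against 26241 to 34623 on the others. For the eIF-4a control probes, whose 3'/5' ratio rises as RNA degrades, that ratio was 2.51 and 2.73 on the control arrays and 2.80 to 4.05 in the transgenic groups, highest on D493N replicate 2. The same ratio for actin was 1.58 and 1.72 on the control arrays and 1.62 to 2.07 on the others, highest on E728Q replicate 1. For GAPDH it was 1.715 and 1.777 on the control arrays and 1.724 to 2.052 on the others. Those ratios of actin and GAPDH overlapped control. Markers of the expected cells were present on every array, from 13226 to 18489 for the photoreceptor adhesion gene chp, 1044 to 1646 for the neuronal gene elav and 1528 to 1965 for the glial gene repo. In whole heads, fewer photoreceptors and less RNA per photoreceptor cannot be told apart.

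All 13 probe sets of the 9 genes were bright enough to be tested, so none was left out as dim. Against control, 4 probe sets rose with wild-type EYA (inaC, 1 of rdgB, laza and Arr1), 3 rose and 1 fell with D493N (inaC, laza and Arr1 higher, 1 of rdgA lower), and 4 rose with E728Q (inaC, inaD, laza and Arr1). The rest of the array gives the background for these counts, in probe sets called by limma at an adjusted p under 0.05. With wild-type EYA 11.4% of all tested probe sets were higher and 10.9% lower, with D493N 14.0% and 13.9%, and with E728Q 11.8% and 11.7%. The count of 4 of 13 was 30.8% in each comparison, a share near the sum of both directions over the whole array. With wild-type EYA and E728Q all 4 calls were higher, above the higher shares of 11.4% and 11.8%. That excess was not tested, and the number of calls is not read as a result about these genes. The median size of their log2 change, 0.195, 0.232 and 0.177 in the order wild-type, D493N and E728Q, lay beside 0.21, 0.235 and 0.214 over all tested probe sets. The 3 comparisons share the same control arrays. Only laza moved by more than 2-fold, and its call alone, with that of Arr1 in the D493N group, held under all 17 alternative settings tried.

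**Figure D1:**
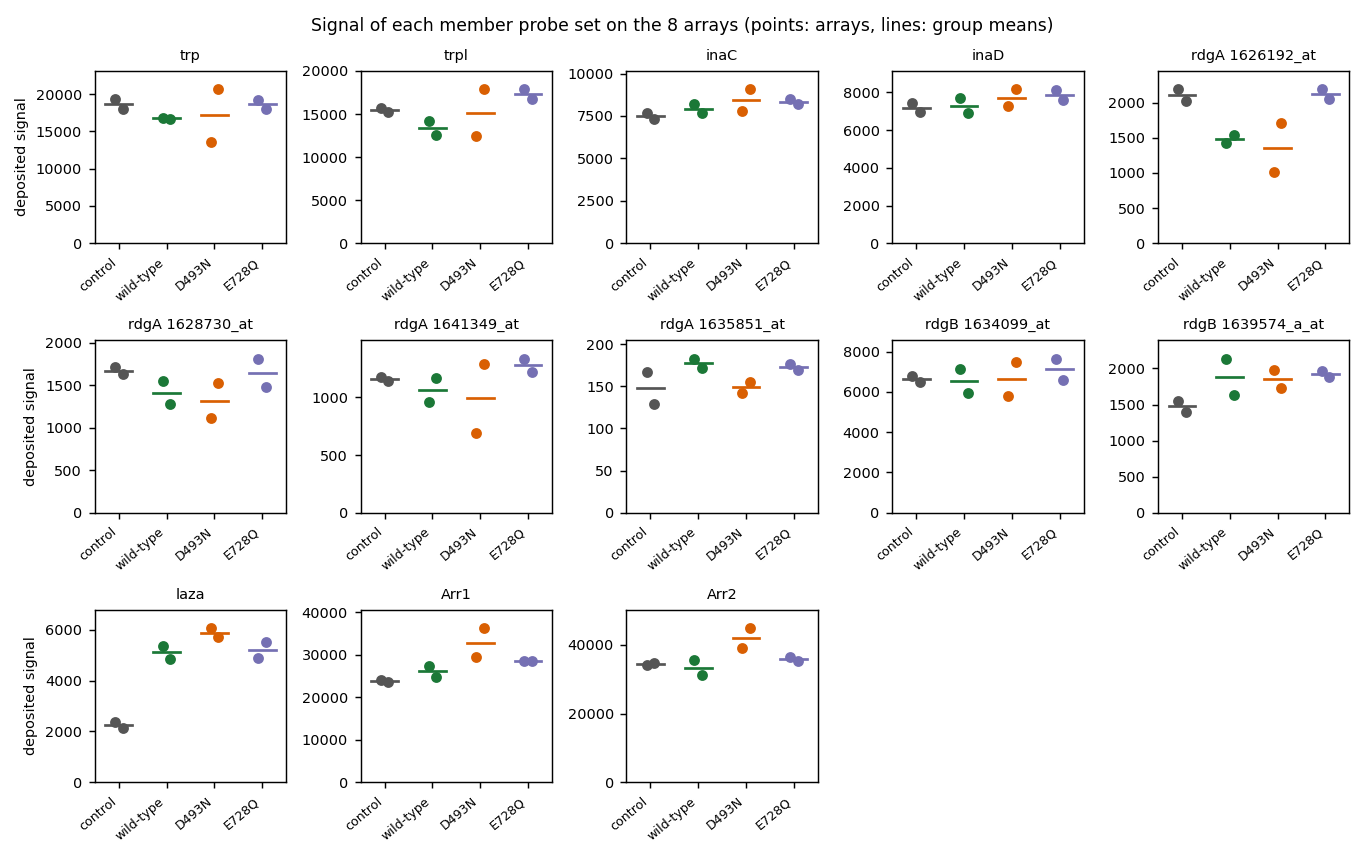
Deposited signal (linear, array median 100) of the 13 probe sets, 1 panel each, with a point for each array and a line for each group mean. The laza points of the 3 transgenic groups lie between 4845 and 6062, above both control arrays at 2130 and 2382, while the D493N points of trp and rdgA lie far apart.

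The channel genes were among the brightest on the array. The signal of trp, the main light-activated channel, was 19358 and 18014 on the control arrays, 16804 and 16706 for wild-type EYA, 13609 and 20656 for D493N and 19236 and 18029 for E728Q. The wild-type values lay below control in deposited signal but overlapped it after quantile normalization. The E728Q values overlapped control. The D493N arrays lay on both sides of control in deposited signal and did not overlap it after normalization. The log2 fold change against control was -0.04 (SE 0.09, adjusted p = 0.801), -0.23 (adjusted p = 0.098) and 0.00 (adjusted p = 0.993) for wild-type EYA, D493N and E728Q. The D493N value of trp depended on the array kept. It was -0.08 (adjusted p = 0.398) without replicate 1, the array that stood apart, and -0.37 (adjusted p = 0.00217) without replicate 2. With 1 D493N array left, the spread comes from the other 3 groups and is taken to hold for D493N as well, and the distance between the D493N arrays no longer counts.

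For trpl, the second channel, the signals were 15731 and 15286 on the control arrays, 14210 and 12513 for wild-type EYA, 12427 and 17887 for D493N and 17873 and 16784 for E728Q. Both E728Q arrays were above control, both wild-type arrays were below it, and the D493N arrays lay on both sides. Its probe set has the suffix _s_at, which marks probes that can match more than 1 transcript. The log2 fold changes of trpl were -0.13 (95% interval -0.32 to 0.06), -0.115 (-0.305 to 0.075) and 0.18 (-0.01 to 0.37), with adjusted p of 0.333, 0.359 and 0.173. Neither channel gene passed the test against control in any group. With only the compared groups in the fit, trpl passed for wild-type EYA (adjusted p = 0.0497) and E728Q (0.0198) at the same values, and leaving out either D493N array gave those calls too. For D493N the sign of trpl depended on the array kept, at 0.02 (adjusted p = 0.817) without replicate 1 and -0.255 (adjusted p = 0.00446) without replicate 2.

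In the signalling complex that holds the channel, inaC rose by a small amount in all 3 groups and inaD with E728Q. The kinase gene inaC, which encodes the eye-specific protein kinase C that helps shut the response off, had signals of 7646 and 7302 on the control arrays, 8189 and 7648 for wild-type EYA, 7804 and 9081 for D493N and 8483 and 8186 for E728Q. Every transgenic array was above both control arrays, although wild-type replicate 2 exceeded control replicate 1 by less than the spread of either pair. The log2 fold change was 0.22 (SE 0.06, adjusted p = 0.021) with wild-type EYA, 0.20 (adjusted p = 0.0259) with D493N and 0.21 (adjusted p = 0.0235) with E728Q. All 3 calls were lost with array medians in place of quantile normalization, where the values were 0.08 (adjusted p = 0.659), 0.17 (0.259) and 0.16 (0.333), and without either control array (adjusted p from 0.0936 to 0.145).

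The scaffold gene inaD encodes the PDZ protein that binds the channel, the kinase and the phospholipase. Its signals were 7452 and 6946 on the control arrays, 7681 and 6925 for wild-type EYA, 7287 and 8178 for D493N and 8133 and 7597 for E728Q. The deposited values of the wild-type and D493N groups overlapped control, and those of E728Q did not. The log2 fold changes of inaD were 0.17 (adjusted p = 0.0586), 0.15 (adjusted p = 0.0891) and 0.19 (adjusted p = 0.0389). The E728Q call was lost without either control array (0.156 and 0.169) and with array medians (0.13, adjusted p = 0.45).

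**Figure D2:**
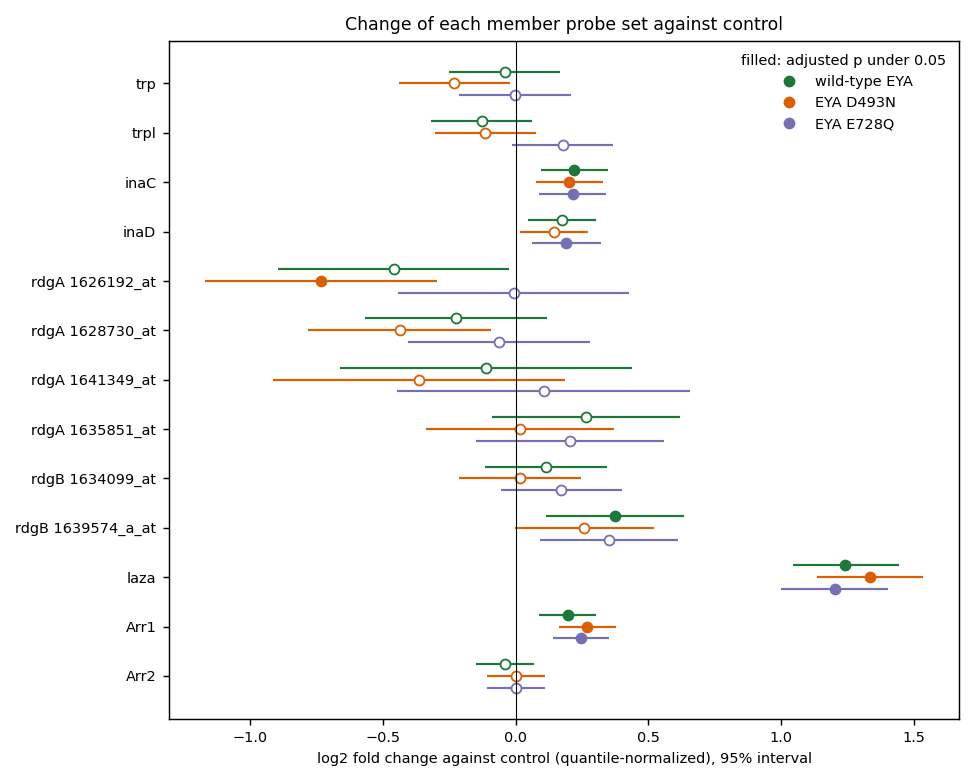
Log2 fold change of each probe set against control on the horizontal axis, with its 95% interval, for the 3 EYA groups in colour. Filled points passed an adjusted p under 0.05. The laza values lie at 1.201 to 1.336 and those of all other probe sets between -0.735 and 0.375.

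The diacylglycerol kinase gene rdgA was read by 4 probe sets, of which 1 fell with D493N and the others passed no test. On the brightest, 1626192_at, the signals were 2193 and 2023 on the control arrays, 1432 and 1547 for wild-type EYA, 1018 and 1706 for D493N and 2193 and 2054 for E728Q. Both the wild-type and the D493N group lay wholly below control there, and E728Q overlapped control. The log2 fold change of this probe set was -0.46 (SE 0.19, adjusted p = 0.128) with wild-type EYA, -0.735 (SE 0.19, adjusted p = 0.0205) with D493N and -0.01 (adjusted p = 0.983) with E728Q.

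The next brightest rdgA probe set, 1628730_at, had values of -0.22 (adjusted p = 0.349), -0.44 (0.0614) and -0.06 (0.816). The rdgA probe set 1641349_at gave 1176 and 1137 on the control arrays, 692 and 1291 for D493N, so that the D493N arrays lay on both sides of control, and its values of -0.11, -0.36 and 0.105 did not pass. The dimmest, 1635851_at, had signals of 129 to 183 over all arrays and no call. D493N replicate 1 was the lowest of the 8 arrays for the 3 brighter rdgA probe sets, as it was for trp, trpl, chp and elav. The D493N call of rdgA 1626192_at changed in size with the array kept, at -0.37 (adjusted p = 0.016) without replicate 1 and -1.095 (adjusted p = 2.5e-05) without replicate 2, each resting on 1 D493N array with the spread of the other groups. The same call was lost without control replicate 1 (-0.73) and without control replicate 2 (-0.74). It was also lost with only the compared groups in the fit (adjusted p = 0.062) and with an untrended prior (adjusted p = 0.0612). The wild-type value passed with only the compared groups in the fit (adjusted p = 0.00218). The part of that array's 18S rRNA and muscle marker signals in these values was not tested.

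The lipid transfer gene rdgB was read by 2 probe sets. Signals of 1639574_a_at were 1551 and 1401 on the control arrays, 2136 and 1635 for wild-type EYA, 1982 and 1727 for D493N and 1967 and 1877 for E728Q. Every transgenic array lay above both control arrays on this probe set. Its log2 fold change was 0.375 (SE 0.115, adjusted p = 0.0461) with wild-type EYA, 0.26 (adjusted p = 0.131) with D493N and 0.35 (adjusted p = 0.0562) with E728Q. The wild-type call was lost without wild-type replicate 1 (0.22, adjusted p = 0.307) and without either control array (0.15 and 0.189). The E728Q value passed in 8 of the 17 alternatives. The brighter rdgB probe set, 1634099_at, ranged from 5810 to 7650 over all arrays, and its values of 0.11, 0.02 and 0.17 did not pass (adjusted p = 0.48, 0.931 and 0.269).

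The largest change among these genes was that of laza, a lipid phosphate phosphatase that opposes rdgA in the photoreceptor. Its signal was 2382 and 2130 on the control arrays, 5379 and 4845 for wild-type EYA, 6062 and 5697 for D493N and 4895 and 5500 for E728Q. The lowest transgenic array exceeded the highest control array by more than 2-fold. On the log2 scale laza rose by 1.24 (SE 0.09, adjusted p = 2.57e-05) with wild-type EYA, 1.34 (adjusted p = 1.42e-05) with D493N and 1.201 (adjusted p = 3.01e-05) with E728Q. In mean deposited signal these are ratios of 2.27, 2.61 and 2.30. All 17 alternatives kept the 3 calls, with values from 1.11 to 1.43 and adjusted p of at most 0.00129.

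The tested genes next to laza on chromosome arm 3L, in the gene order of the Release 6 assembly, rose with it. CG11438, CG11437, CG11426 and CG11425 follow laza in that order, with 1 lncRNA gene without a probe set of its own among them, and are annotated in the same enzyme family. CG11425 had signals of 1243 and 1136 on the control arrays, 10400 and 8747 for wild-type EYA, 9561 and 8573 for D493N and 9069 and 10344 for E728Q. No transgenic array came near the control range. Its log2 fold change was 3.04 (SE 0.115, adjusted p = 1.17e-06), 2.88 (adjusted p = 1.36e-06) and 2.98 (adjusted p = 1.08e-06).

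CG11438 rose by 1.06, 0.935 and 1.06, and CG11426 by 1.05, 1.05 and 1.03, on the log2 scale. CG11437 had signals of 105 and 103 on the control arrays, 363 and 341 for wild-type EYA, 322 and 262 for D493N and 206 and 183 for E728Q, so the E728Q arrays lay between control and the other groups. Its log2 fold change was 1.64, 1.31 and 0.79. The calls of these 4 genes against control held in all 17 alternatives. Between transgenes, CG11437 was lower with E728Q than with wild-type EYA by -0.84 (SE 0.14, adjusted p = 0.0422), which held in 6 of 17 alternatives and not without wild-type replicate 1 (adjusted p = 0.34).

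In a window of 20 tested genes on each side of laza, chosen after seeing these values, 36 genes were outside this run of 5. Among these 36, calls for wild-type EYA were 4 higher and 1 lower, for D493N 6 and 1, and for E728Q 4 and 3. On the whole array 11.4% were higher and 10.9% lower, 14.0% and 13.9%, and 11.8% and 11.7%, in that order. The counts of higher calls are thus near the background and those of lower calls below it, a gap that was not tested. The next tested gene beyond CG11425, CG14459, had values of 0.40, 0.28 and 0.12 and no call. On the other side Ten-m, a cell surface protein gene, rose by 0.395, 0.50 and 0.32, of which the E728Q call was lost without either control array (adjusted p = 0.0634 and 0.0683).

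**Figure D3:**
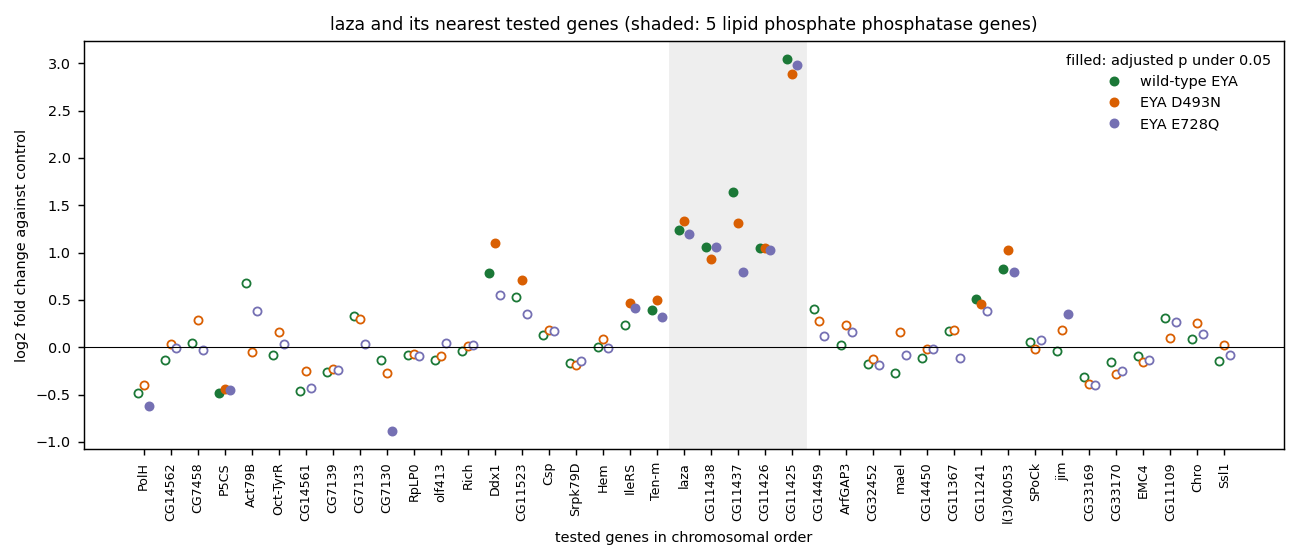
Log2 fold change against control (vertical axis) of laza and the 20 tested genes on each side in chromosomal order, for the 3 EYA groups. Filled points passed an adjusted p under 0.05, and the shaded run of 5 lipid phosphate phosphatase genes lies between 0.79 and 3.04.

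None of the other 4 listed lipid phosphatase genes rose. Both wunen genes, which act on extracellular phospholipids in germ cell migration, fell. The log2 fold change of wun was -0.74, -0.755 and -0.72 (SE 0.08), and that of wun2 was -0.67, -1.36 and -1.01 (SE 0.16). The wild-type call of wun2 was lost in 4 of 17 alternatives, with an adjusted p of 0.109 without control replicate 1. CG12746 (0.17, 0.09 and 0.04) and Lpin (-0.06, -0.02 and -0.08), the fly lipin gene, did not pass in any group. Over the list of 8 such genes other than laza, 4 rose and 2 fell in each group. Across the 3 groups, the background of all tested probe sets was 11.4% to 14.0% higher and 10.9% to 13.9% lower. Median log2 changes of the list were 0.61, 0.51 and 0.42, beside -0.03, -0.02 and 0.00 over the 8658 genes tested. All 4 genes that rose lie in the run next to laza. The higher count and the medians therefore cannot speak for the enzyme family apart from that run.

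The arrestins sit at the top of the signal range, which limits what can be read from them. Signals of Arr1 were 24205 and 23500 on the control arrays, 27476 and 24840 for wild-type EYA, 29465 and 36285 for D493N and 28488 and 28476 for E728Q. Both control arrays lay below every transgenic array. On the log2 scale Arr1 rose by 0.195 (SE 0.05, adjusted p = 0.0167) with wild-type EYA, 0.27 (adjusted p = 0.0027) with D493N and 0.245 (adjusted p = 0.00546) with E728Q. With arrays scaled to a common trimmed mean and no quantile step, an alternative chosen after seeing the data, the values were 0.19 (adjusted p = 0.177), 0.425 (0.00778) and 0.26 (0.0713). The D493N call of Arr1 held in 17 of 17 alternatives, the wild-type call in 9 and the E728Q call in 11.

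Signals of Arr2, the major arrestin of the fly eye, were 33992 and 34724 on the control arrays, 35585 and 31114 for wild-type EYA, 39147 and 44815 for D493N and 36466 and 35248 for E728Q. Both D493N arrays and both E728Q arrays were above control in deposited signal. Arr2 was the brightest probe set on 7 of 8 arrays, and quantile normalization gives the brightest probe set the same value on every array. Its fitted values of -0.04, 0.00 and 0.00 are therefore set by the method. With trimmed-mean scaling the log2 fold change of Arr2 was 0.02 (adjusted p = 0.919), 0.26 (0.0549) and 0.07 (0.649).

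**Figure D4:**
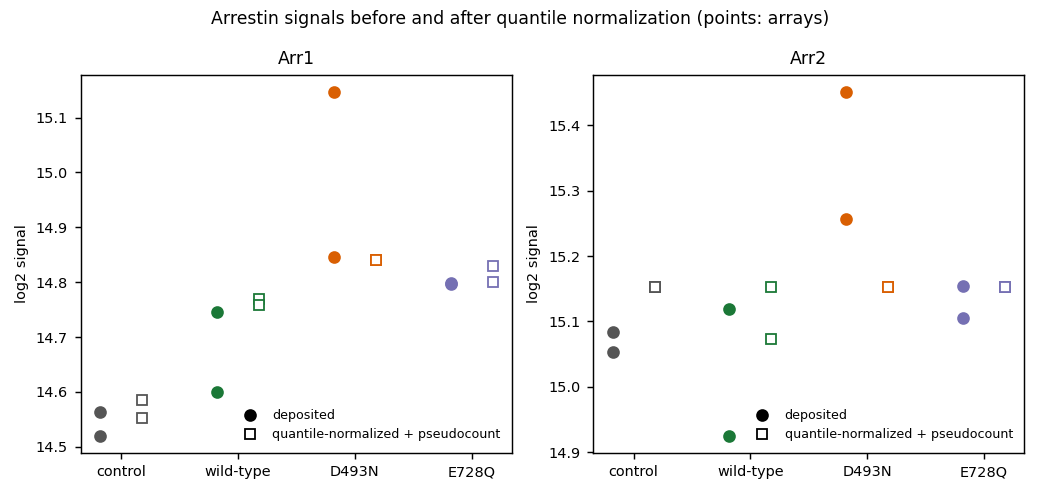
Log2 signal (vertical axis) of Arr1 and Arr2 on each array by group, as deposited (filled circles) and after quantile normalization with the pseudocount (open squares). The D493N circles lie highest for both genes, while the Arr2 squares coincide on the 7 arrays where it is the brightest probe set.

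The next gene to Arr1 on its chromosome arm, ninaD, encodes a scavenger receptor needed for carotenoid uptake, from which the rhodopsin chromophore is made. Its signals were 234 and 196 on the control arrays, 111 and 107 for wild-type EYA, 64 and 84 for D493N and 67 and 73 for E728Q. Unlike Arr1, ninaD fell, with log2 changes of -0.88 (adjusted p = 0.0104), -1.37 (adjusted p = 0.000831) and -1.42 (adjusted p = 0.000832). Pkc53E, a neighbour and paralog of inaC, had values of 0.05, 0.07 and 0.17 and no call (adjusted p = 0.733, 0.593 and 0.179).

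On the other side of inaC the nearest tested gene, CG6472, fell by -1.48 (adjusted p = 0.00113), -1.90 (adjusted p = 0.000223) and -1.35 (adjusted p = 0.00184), in all 17 alternatives. Its signals were 334 and 314 on the control arrays and 63 to 124 on the others, so the groups did not overlap. Farther along, CG6429 fell with D493N by -0.35 (adjusted p = 0.0276), and rdo, the other neighbour of Arr1, fell with D493N by -0.37 (adjusted p = 0.0304). Those calls held in 9 and 7 of 17 alternatives. Without either control array they were lost (adjusted p = 0.0673 and 0.167 for CG6429, 0.203 and 0.0512 for rdo), and the values fell in size to -0.22 for CG6429 without D493N replicate 2 and -0.23 for rdo without D493N replicate 1. The wild-type call of ninaD was lost without control replicate 1 (adjusted p = 0.0946).

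The transgenic groups were also set against each other, which asks whether the phosphatase mutants act like wild-type EYA. By limma none of the 13 probe sets passed in any of these 3 comparisons. At an unadjusted p under 0.05 there were 0 for D493N against wild-type EYA, 2 higher for E728Q against wild-type EYA and 4 lower for D493N against E728Q. The share of the whole array at an unadjusted p is not given here, so those counts have no background to be read against. At an adjusted p under 0.05, 0.533% of all tested probe sets were higher and 0.622% lower for D493N against wild-type EYA. Those shares were 0.355% and 0.355% for E728Q against wild-type EYA, and 0.0888% and 0.0799% for D493N against E728Q. With array medians in place of quantile normalization these splits moved from 60 higher and 70 lower to 92 and 38, from 40 and 40 to 42 and 24, and from 10 and 9 to 11 and 6.

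The widest of these differences was that of rdgA 1626192_at, which was lower with D493N than with E728Q by -0.73 (95% interval -1.16 to -0.29, adjusted p = 0.18). For trpl, E728Q exceeded wild-type EYA by 0.30 (0.114 to 0.494, adjusted p = 0.192) and D493N lay below E728Q by -0.29 (-0.48 to -0.10, adjusted p = 0.219). The first trpl difference passed in 4 of 17 alternatives. For laza the D493N value differed from wild-type EYA by 0.09 (-0.11 to 0.29), and E728Q differed from wild-type EYA by -0.04 (-0.24 to 0.16). Differences of laza beyond those bounds are outside the 95% intervals, and smaller ones cannot be told from 0 with 2 arrays a group. Leaving out 1 D493N array, so that the other groups supply the spread, gave 0 calls in both D493N comparisons without replicate 1, and 3 (against wild-type EYA) and 5 (against E728Q) without replicate 2.

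Of 28 other genes of the light response, 22 had a probe set of their own and 21 were tested. Against control, 3 rose with wild-type EYA, 3 rose and 1 fell with D493N, and 5 rose with E728Q. Those 21 genes stand beside shares of 11.4%, 14.0% and 11.8% higher over all tested probe sets, so counts of 3 are near the background. The count of 5 with E728Q was above its share, and that excess was not tested. Their median log2 change was 0.10, 0.11 and 0.14, beside -0.03, -0.02 and 0.00 over all genes. Pis, the phosphatidylinositol synthase that acts downstream in the lipid cycle, rose by 0.18, 0.19 and 0.18 (SE 0.05), with 6, 8 and 6 of 17 alternatives keeping the call. Pi4KIIIalpha, a kinase that makes phosphatidylinositol 4-phosphate, rose by 0.23 with wild-type EYA and 0.265 with E728Q.

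The gene stops, which is needed for normal phospholipase C protein levels, rose by 0.32 with wild-type EYA (adjusted p = 0.032) and 0.51 with E728Q (adjusted p = 0.00355). Cnx99A, a calnexin needed for rhodopsin maturation, rose by 0.31 with D493N and 0.46 with E728Q. The E728Q calls of stops and Cnx99A held in all 17 alternatives. Like trpl, both were read by a probe set with the suffix _s_at, as were Pld and Galphaq. Fkbp59, an immunophilin that binds TRPL, rose by 0.32 with D493N, and rtp, the retinophilin gene, rose by 0.20 with E728Q. Pld, the phospholipase D gene, fell by -0.66 with D493N (adjusted p = 0.0344). Each other call in this list was lost without control replicate 1, with adjusted p from 0.0588 (Cnx99A, D493N) to 0.277 (rtp). The G protein genes Galphaq (0.01, -0.16 and 0.06) and Gbeta76C (0.17, 0.00 and 0.165) did not pass.

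Among 12 tested paralogs of the cascade genes, calls were 1 higher and 2 lower for wild-type EYA and 4 lower for each of D493N and E728Q, beside 10.9%, 13.9% and 11.7% lower over all tested probe sets. The atypical kinase gene aPKC, a cell polarity regulator, fell by -0.855, -0.73 and -0.80 (SE 0.10), in all 17 alternatives. The gene vib, which encodes a phosphatidylinositol transfer protein used in cell division, rose by 0.40 with wild-type EYA (adjusted p = 0.00859), fell by -0.44 with D493N (adjusted p = 0.00409) and fell by -0.27 with E728Q (adjusted p = 0.0458). Against wild-type EYA, vib was lower with D493N by -0.84 (adjusted p = 0.00248) and with E728Q by -0.67 (adjusted p = 0.0087). Without control replicate 2 the wild-type rise of vib was lost (0.0763), and without E728Q replicate 1 its E728Q fall was lost (0.248). The differences between transgenes passed in 14 and 12 of 17 alternatives and were lost when either wild-type array was left out (adjusted p of up to 0.056 and 0.14). The kinase gene Pkc98E fell by -0.43 with D493N and -0.38 with E728Q, and krz, the non-visual arrestin gene, fell by -0.43 with wild-type EYA and -0.48 with E728Q. Dgkepsilon, another diacylglycerol kinase gene, fell by -0.29 with D493N. Without 1 control array these calls were lost, for Pkc98E without replicate 1 (adjusted p = 0.0789 and 0.144), for krz without replicate 2 (0.205 and 0.137), and for Dgkepsilon without either (0.0759 and 0.0823).

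Photoreceptors signal to the brain with histamine, and 3, 2 and 2 of 6 tested genes of its synthesis, recycling and reception fell, in the order wild-type EYA, D493N and E728Q, beside 10.9%, 13.9% and 11.7% lower over all tested probe sets. The gene e, whose product Ebony conjugates histamine to beta-alanine in glia, fell by -0.63, -1.38 and -1.01 (SE 0.12). Balat, a beta-alanine transporter gene, fell by -0.85, -0.68 and -0.73, and t, which encodes the enzyme that frees histamine again, fell by -0.41 with wild-type EYA. The gene e was also lower with D493N than with wild-type EYA, by -0.75 (adjusted p = 0.0276), which held in 8 of 17 alternatives and not without wild-type replicate 1 (0.218). Calls of Balat were lost without either control array (adjusted p from 0.0807 to 0.145), and the D493N value of Balat, called in 7 of 17 alternatives, was -0.425 (adjusted p = 0.151) without D493N replicate 2. The call was lost for t without control replicate 2 (0.178) and for e with wild-type EYA without the same array (0.0536). Both Ebony and Balat act outside photoreceptors. Some markers of other cells also changed. None of the 4 tested markers of neurons and none of the 4 tested markers of muscle passed against control in any group. The glial gene moody rose by 1.29, 1.35 and 1.15, the glial gene alrm fell by -0.79, -0.92 and -0.94, and the pigment cell gene pinta fell by -0.83, -0.41 and -0.66, while the other pigment cell gene, rdhB, passed in no group (-0.02, -0.12 and 0.06). The alrm value for D493N ran from -1.28 to -0.56 over the alternatives. With D493N the glial genes repo (-0.27) and Gs2 (-0.24) fell too, in 6 and 5 of 17 alternatives, while the glial gene nrv2 did not pass (0.24, adjusted p = 0.179). Summed signal of the 5 glial markers was 30561 to 31675 on the control arrays and 29119 to 30359 for wild-type EYA. It was 32676 to 33737 for D493N, above control, and 31166 to 32189 for E728Q. The glial markers thus did not move in 1 direction.

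Fat body markers, which read the adipose tissue of the head, changed as well. Of 6 tested, calls for wild-type EYA were 1 higher and 4 lower, for D493N 1 and 3, and for E728Q 1 and 4. The shares over all tested probe sets were 11.4% higher and 10.9% lower, 14.0% and 13.9%, and 11.8% and 11.7%, in that order. The yolk protein gene Yp1 passed in no group. Its signals of 26222 to 36670 lay near the top of the range, where quantile normalization limits what can be read, as for the arrestins. Lsp2, a storage protein gene, rose by 1.49, 1.60 and 1.60, and fon fell by -0.98, -1.53 and -1.57, in all 17 alternatives. The gene fit fell by -0.62, -1.815 and -2.36, of which the wild-type call was lost without wild-type replicate 2 (-0.43, adjusted p = 0.267). Yp2, a yolk protein gene, fell by -0.31, -0.46 and -0.47, and apolpp, a lipid carrier gene, fell by -0.38 with wild-type EYA and -0.24 with E728Q. The apolpp calls were lost without control replicate 2 (adjusted p = 0.0598 and 0.21), and those of Yp2 for wild-type EYA without either control array (0.0523 and 0.0675) and for D493N with array medians (-0.265, adjusted p = 0.173). Summed fat body signal was 89078 to 95472 on the control arrays, 69125 to 81926 for wild-type EYA, 79737 to 91341 for D493N and 73851 to 75500 for E728Q, and its part in the results was not tested.

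**Figure D5:**
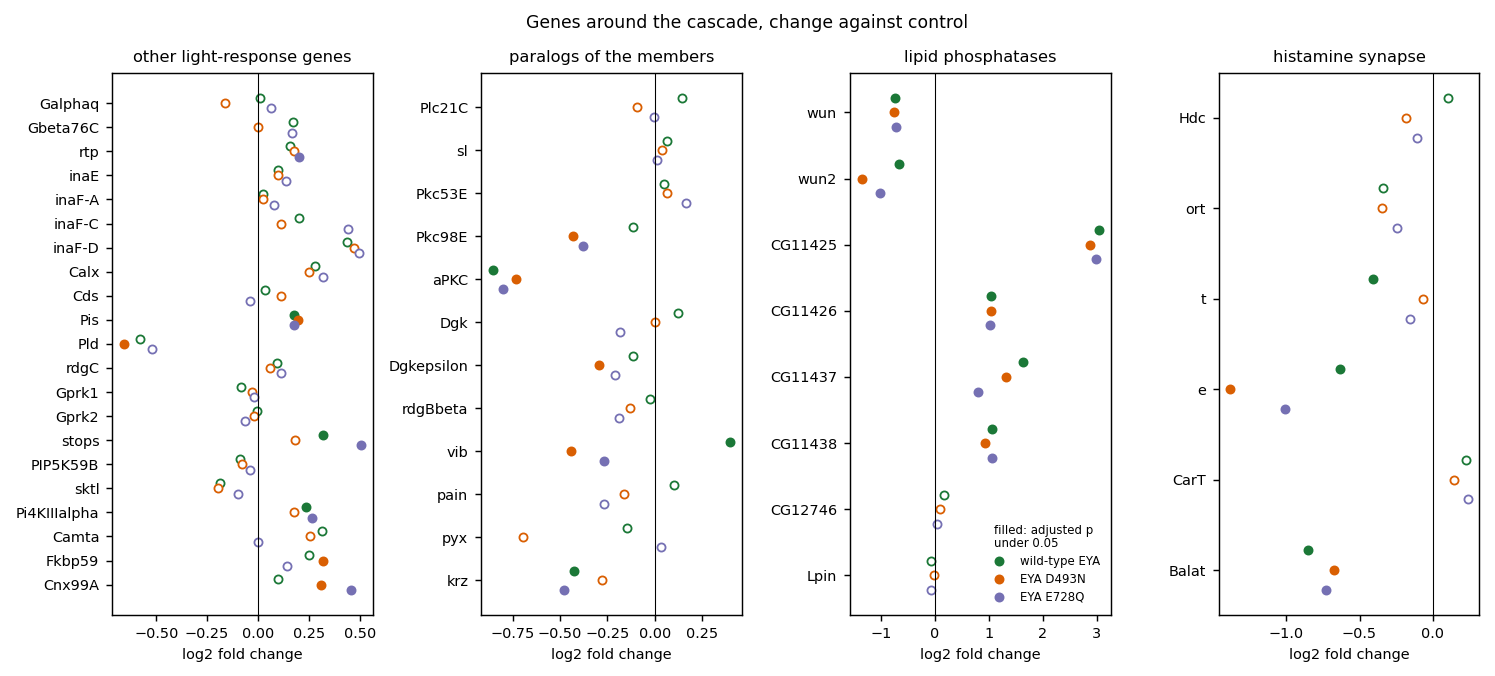
Log2 fold change against control (horizontal axis) of the tested light-response genes, paralogs, lipid phosphatase genes and histamine synapse genes, with filled points at an adjusted p under 0.05. Most light-response points lie within 0.5 of 0, while CG11425 reaches 3.04 and e falls to -1.38.

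Summed signals of the 5 photoreceptor markers with a probe set of their own, of 11 listed, were 20422 to 21284 in control, 20529 to 21726 with wild-type EYA, 18220 to 25188 with D493N and 22326 to 23979 with E728Q. No marker was at 0 on any array. Most of each sum was the signal of chp, at 13226 to 18489. The E728Q arrays exceeded both control arrays, as they did for inaC and inaD. For inaC the wild-type and D493N arrays exceeded control too, which the sums did not. The D493N arrays lay on both sides of control, as they did for trp and trpl. The part of these marker levels in the results was not tested. Among the 5, gl rose with wild-type EYA (0.52) and D493N (0.64), and Pph13 fell with D493N (-0.35). These 3 calls were lost without either control array (adjusted p = 0.165 and 0.127 for gl with wild-type EYA, 0.0748 and 0.0582 for gl with D493N, 0.0586 and 0.0599 for Pph13), and the D493N value of gl ran from 0.375 to 0.92 over the alternatives.

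Of the 8657 other tested genes, those whose centred log2 values lay nearest to laza over the 8 arrays were PAN2, CG5446, Ankle2, qkr58E-2 and CG1486. Their mean absolute difference from laza, after centring each gene on its own mean, was 0.027 to 0.046, beside a median of 0.488 over all genes. For inaC the closest were Pis, Serinc, p120ctn, ArfGAP1 and CG1943 (0.021 to 0.024, median 0.168), and for Arr1 they were ArfGAP1, Cp190, Galphas, CG10151 and CG42268 (0.022 to 0.029, median 0.172). The 4 neighbours of laza were thus not among its 5 closest genes by this measure. It depends on the size of a change as well as its pattern. CG11425, which rose by 3.04, 2.88 and 2.98, could therefore not be close to laza.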

How the data were processed

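Head RNA of 8 fly samples was hybridised to 1-colour Affymetrix arrays, 2 per group. The authors deposited 1 intensity per probe set and array, on a linear scale, and GCOS is named in the submitters' processing notes with no version. The deposited intensities have a median of 100 on every array, and no aligner or further step is given in the sources used here. From these values, 183 control probe sets were left out, the intensities were quantile normalized, and log2 was taken after adding 17.53, the 25th percentile of all deposited values, which understates changes of dim probe sets. Ranked by mean over all arrays, the upper 60% of 18769 probe sets (11261, down to a mean of 38.1) were tested in 1 limma fit (limma 3.58.1, R 4.3.3) with 4 group terms and a trended prior variance. The number of arrays limits the precision, with 4 residual degrees of freedom. Every adjusted p is a two-sided limma p after the Benjamini-Hochberg procedure across the tested probe sets, done separately for the 6 comparisons. Calls are at an adjusted p under 0.05. The fit was tested on simulated data.

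Probe sets were named through the platform annotation, in which 13647 carried 1 gene symbol and 402 several, and 13544 symbols were updated by gene ID with assembly Release 6 plus ISO1 MT. A gene in a list was represented by its brightest probe set. Alternatives were other scalings, pseudocounts of 1 and 50, no filter, only the compared groups, an untrended prior, array quality weights, the replicate number as a block, and leaving out each array. The cascade genes, the lists and the tests were chosen with earlier results of these data known. Named genes were all genes of the cascade with a probe set, list genes that passed a test, the nearest chromosomal neighbours and the 5 closest genes by pattern of the cascade genes called in all 3 groups.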

Additional observations from a re-analysis of the deposited data

How the results depend on the processing

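No cascade probe set reversed its direction as a called result. Of the 1326 combinations of probe set, comparison and alternative, 1219 kept their side of the threshold, 64 lost a call and 43 gained one, and the cause was not tested. The counts of 4 cascade probe sets called with wild-type EYA, D493N and E728Q against control became 1, 3 and 1 with array medians, 2, 3 and 1 without the filter, 7, 2 and 6 with only the compared groups, 1, 2 and 1 with an untrended prior, and 2, 3 and 2 with trimmed-mean scaling (chosen after seeing the data). For E728Q against wild-type EYA the count of 0 became 2 with only the compared groups and 1 with array weights. Leaving out 1 array gave counts of 1 to 7, 2 to 9 and 1 to 6 against control, and 0 to 3 (D493N against wild-type EYA), 0 to 2 (E728Q against wild-type EYA) and 0 to 5 (D493N against E728Q), where the group left with 1 array is assumed to vary like the others.

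Replicate numbers did not pair the arrays, with correlations of deviations between same-numbered arrays of -0.144 to 0.094. With the replicate number as a block the counts stayed at 4, 4 and 4, although inaD with E728Q lost its call (adjusted p = 0.0666) and rdgB 1639574_a_at gained one (0.0329). Over all probe sets the counts of 2516, 3147 and 2648 against control ranged over 1413 to 3423, 1868 to 3731 and 1483 to 3516 when 1 array was left out, lowest without control replicate 1. The 130, 80 and 19 calls between transgenes ranged over 17 to 1021, 11 to 322 and 4 to 1094, and fell to 27, 23 and 7 with an untrended prior. They were 17, 230 and 3 with only the compared groups, 79, 247 and 19 with array weights, 86, 46 and 15 with the block, and 89, 46 and 17 without the filter. The calls of laza and CG11425 held in every alternative, and the smaller ones of inaC, inaD, rdgB and Arr1 (wild-type, E728Q) did not. The D493N call of rdgA 1626192_at held in 13 of 17. Signals near the top of the range limit what quantile normalization can show for the arrestins.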
